A study of Mus musculus with 7 samples.

Results

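Promoter H3K4me1-marked regions without Runx3 were the regions of the H3K4me1 list of resting CD8-positive T cells (CD8-TC) that shared no base with a Runx3-bound region, were not among the 767 widest regions of the list, and had their midpoint under 1 kb from the nearest transcription start site (TSS) of a protein-coding transcript. The members were thus chosen by the called positions, the widths and the absence of a Runx3 call. They numbered 13752 of 76705 H3K4me1-marked regions (17.9%, 95% Wilson interval 17.7 to 18.2%). They formed 95.2% of the 14441 H3K4me1-marked regions within that distance, where a further 667 overlapped Runx3 and 22 were among the widest. The members lay at 12445 of 45947 distinct protein-coding TSSs.

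The mark and the factor were measured by chromatin immunoprecipitation and sequencing (ChIP-seq) in freshly isolated splenic CD8-TC of ICR mice, with cells collected from 18 mice and taken by positive selection on anti-CD8 beads to a purity above 95%. The labels gave neither age nor genotype beyond the strain. The groups differed in the antibody alone, with 2 libraries for monomethylated lysine 4 of histone H3 (H3K4me1), 3 libraries of 2 repeats for Runx3, and 2 libraries of non-immune rabbit serum (NIS) as control. The authors joined the repeats before they called regions, so that each antibody gave 1 list of positions with no height, no read count and no spread between repeats.

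H3K4me1 is laid down by methyltransferases of the MLL and SET1 family and is best known as a mark of enhancers. At promoters in use, the nucleosomes next to the TSS usually carry the trimethylated form of the same lysine, whereas the monomethylated form lies farther out on the flanks. Many mammalian promoters are CpG-rich and serve genes used in most cells, and CpG-poor promoters more often serve genes of particular cell types.

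Sequences are shown for 6 promoters of the main kinds described below. They were taken from lists of genes by a rule on width, CpG content and cover of the TSS, so that the contrast in CpG between them was set by the choice. They are given on mm9, outside annotated exons. Each sequence has 150 bp, is written 5′ to 3′ on the strand of the gene, and has its CpG dinucleotides in capitals. At E2f1 (a transcription factor of the cell cycle), Ndufv2 (a subunit of complex I of the respiratory chain) and Rpl24 (a protein of the large ribosomal subunit) the mark lay on both sides of a TSS that it did not cover. The 150 bp before the TSS, which were not marked, held 20 to 22 CpG.
E2f1, before the TSS, chr2:154395629-154395778, minus strand: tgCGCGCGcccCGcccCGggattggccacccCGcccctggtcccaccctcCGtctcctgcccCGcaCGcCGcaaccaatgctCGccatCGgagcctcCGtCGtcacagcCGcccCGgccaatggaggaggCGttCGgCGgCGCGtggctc
Ndufv2, before the TSS, chr17:66450900-66451049, minus strand: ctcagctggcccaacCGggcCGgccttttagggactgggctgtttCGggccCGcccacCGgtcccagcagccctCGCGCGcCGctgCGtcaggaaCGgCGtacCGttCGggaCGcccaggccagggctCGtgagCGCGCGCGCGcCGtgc
Rpl24, before the TSS, chr16:55973767-55973916, plus strand: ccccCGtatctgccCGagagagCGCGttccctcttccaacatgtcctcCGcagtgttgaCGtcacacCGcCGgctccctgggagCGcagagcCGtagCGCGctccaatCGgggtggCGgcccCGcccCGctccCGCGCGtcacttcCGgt

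The 150 bp around the midpoint of the upstream member at the same TSSs held 2 or 3 CpG. They show that the marked sequence next to a CpG-rich promoter can itself be CpG-poor.
E2f1, upstream member, chr2:154396340-154396489, minus strand: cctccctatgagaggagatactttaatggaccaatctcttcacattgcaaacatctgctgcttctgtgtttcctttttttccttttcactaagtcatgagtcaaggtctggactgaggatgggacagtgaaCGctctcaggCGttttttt
Ndufv2, upstream member, chr17:66451692-66451841, minus strand: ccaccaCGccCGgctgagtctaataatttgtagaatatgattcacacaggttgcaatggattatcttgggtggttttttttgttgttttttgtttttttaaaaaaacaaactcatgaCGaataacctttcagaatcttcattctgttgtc
Rpl24, upstream member, chr16:55972874-55973023, plus strand: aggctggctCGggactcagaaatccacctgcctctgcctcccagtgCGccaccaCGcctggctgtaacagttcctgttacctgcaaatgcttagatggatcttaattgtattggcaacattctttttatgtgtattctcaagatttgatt

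At Fyn (a Src-family kinase of T-cell receptor signalling), Cx3cr1 (the receptor of the chemokine fractalkine) and Gbp2 (an interferon-induced GTPase) a single member ran across the TSS. The 150 bp before these TSSs lay inside the member and held 2, 4 and 0 CpG.
Fyn, before the TSS, chr10:39088511-39088660, plus strand: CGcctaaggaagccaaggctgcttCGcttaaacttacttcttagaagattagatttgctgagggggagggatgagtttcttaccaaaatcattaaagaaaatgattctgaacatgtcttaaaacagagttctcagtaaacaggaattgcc
Cx3cr1, before the TSS, chr9:119977401-119977550, minus strand: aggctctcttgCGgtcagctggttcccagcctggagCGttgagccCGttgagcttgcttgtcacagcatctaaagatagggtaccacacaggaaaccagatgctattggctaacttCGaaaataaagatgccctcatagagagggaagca
Gbp2, before the TSS, chr3:142283416-142283565, plus strand: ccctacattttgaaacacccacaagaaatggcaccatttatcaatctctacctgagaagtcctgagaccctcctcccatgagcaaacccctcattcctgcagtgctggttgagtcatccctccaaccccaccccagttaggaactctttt

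The side of the TSS was read from the midpoint of each member. Upstream of the TSS lay 7396 members and downstream 6351 (46.2%, interval 45.4 to 47.0%), and 5 had their midpoint on the TSS base. The share downstream was 46.2% for genes on the plus strand and 46.2% for those on the minus strand. Which side held more members depended on the distance allowed. With midpoints under 500 bp 38.4% lay downstream, and with midpoints under 2000 bp 54.1% did. Of the 14248 regions without Runx3 whose midpoint lay 1 to 5 kb from a TSS, 67.5% (interval 66.7 to 68.2%) were downstream. The count of sides at 1 kb is therefore a property of that limit, and the next values give the positions themselves.

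Midpoints formed a peak on each side. The fullest 100-bp bin upstream lay 500 to 400 bp before the TSS and held 1126 members. From 200 bp before to 300 bp after the TSS the bins held 398 to 443 members. Downstream the counts rose to 879 in the bin 800 to 900 bp after the TSS and were still at 741 in the bin just beyond the limit, whereas upstream they had fallen to 360 there. The median upstream midpoint lay 500 bp before the TSS and the median downstream midpoint 627 bp after it. The upstream peak was thus nearer to the TSS and lay within the limit, and the downstream peak was broader and ran past it.

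**Figure D1:**
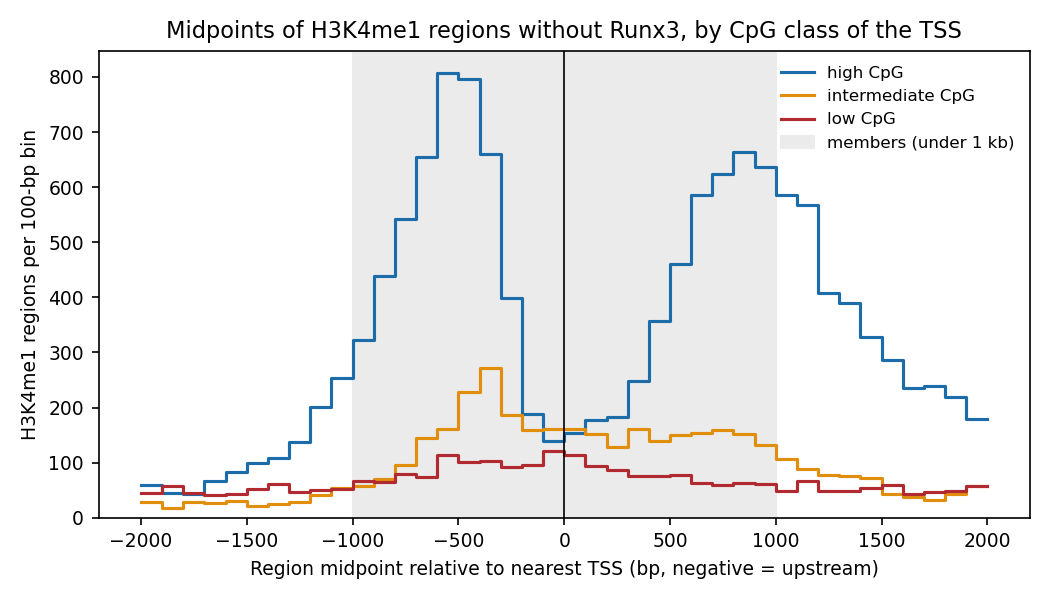
Midpoints of H3K4me1-marked regions without Runx3 relative to the nearest protein-coding TSS (x axis, bp) as regions per 100-bp bin (y axis), by CpG class of the TSS, with members in the shaded range. High-CpG TSSs have a peak on each side with few midpoints at the TSS, and low-CpG TSSs have no such pair of peaks.

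The median width of the members was 907 bp (interval 898 to 915 bp, range 242 to 7223 bp). The rule left out the widest regions, and its limit on midpoints leaves out long regions that begin near a TSS, so widths are given as a description. Downstream members had a median of 1019 bp and upstream members one of 829 bp. The 5 widest members upstream were at Rnf146 (7223 bp), an E3 ubiquitin ligase, Gm10088 (7186 bp), Tbc1d14 (6935 bp), Rara (6825 bp), the retinoic acid receptor alpha, and Gm17334 (6295 bp). The 5 widest downstream were at Slc17a9 (6823 bp), a vesicular nucleotide transporter, Inpp5a (6567 bp), an inositol polyphosphate phosphatase, Chd7 (6434 bp), a chromatin remodeller, Spns3 (6202 bp) and Tnfaip3 (6081 bp), which edits ubiquitin in NF-kB signalling. All 10 ran across their TSS, which follows from the rule. A member wider than 2000 bp with its midpoint under 1 kb away must hold the TSS. As an example, the Tnfaip3 member at chr10:18727897-18733977 reached from 2208 bp before to 3872 bp after the TSS, with its midpoint in an intron.

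The limits of the rule fell within a continuous spread. The narrowest region left out for its width had 7340 bp and the next region in the list 7338 bp. Near promoters, regions at Bmf (7451 bp) and Pou2f2 (7898 bp) were just too wide. Members at Ddx59 and Hdgfrp3 lay just inside the distance limit at 999 bp downstream, and regions at 2310022B05Rik (downstream) and 2810474O19Rik (upstream) just outside it at 1000 bp.

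The midpoint alone does not say whether the TSS itself was marked. The TSS base lay inside 5033 members (36.6%, interval 35.8 to 37.4%), and 8719 lay wholly on 1 side. Among the latter, the edge facing the TSS was a median of 167 bp away upstream and 222 bp downstream. Promoters were then classed by CpG content in 500-bp windows from 900 bp before to 400 bp after the TSS. A TSS was high-CpG where a window reached an observed to expected CpG ratio of 0.75 with 55% GC, low-CpG where none reached 0.48, and intermediate otherwise. Of the members, 65.7% lay at high-CpG, 22.0% at intermediate and 12.3% at low-CpG TSSs, against 44.5%, 19.8% and 35.7% of all distinct protein-coding TSSs.

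High-CpG promoters were seldom covered by the member and low-CpG promoters mostly were. The TSS was covered by 26.0% of members at high-CpG, 52.1% at intermediate and 65.3% at low-CpG TSSs. The odds ratio of high against low was 0.187 (95% interval 0.167 to 0.208) by a two-sided Fisher's exact test with an adjusted p of 2.27e-205 (Benjamini-Hochberg over 7 tests). The test treats regions as independent, although neighbouring regions and regions of 1 gene are not. Low-CpG members were wider, with a median of 1066 bp against 887 bp, and covering a TSS partly follows from width. Within the quartiles of the members by width, from the narrowest to the widest, the shares covering were 21.8% and 32.8%, 22.3% and 50.4%, 22.7% and 64.8%, and 40.6% and 91.9% for high- and low-CpG TSSs. The order held in each quartile. Members wider than 2000 bp must cover the TSS under the midpoint limit. This bears on the widest quartile and on the value below for regions at or above the median width. When neighbouring regions up to 1000 bp apart were merged, the odds ratio was 0.993 (Fisher's exact test, adjusted p = 0.967), whereas it was 0.0743 for regions at or above the median width. Of the merged regions 78.3% covered the TSS, since merging joins the regions on either side of most unmarked gaps.

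TSSs that a member left open were mostly marked on both sides, unless neighbouring regions were merged. Of the 12445 TSSs with a member, 42.8% were covered by an H3K4me1-marked region, and 293 of these by a region other than their member. On both sides, with the facing edges within 2000 bp, 5902 TSSs (47.4%) were marked. Upstream alone 3.29% were marked and downstream alone 6.49%. Of the 7119 uncovered TSSs, both sides were marked at 82.9% (interval 82.0 to 83.8%). This share was 88.4% at high-CpG, 71.7% at intermediate and 38.3% at low-CpG TSSs. The odds ratio of high against low was 12.2 (interval 9.88 to 15.1, Fisher's exact test, adjusted p = 2.08e-117). After merging of neighbours within 1000 bp, 44.3% of the TSSs still uncovered were marked on both sides, and the odds ratio was 5.39.

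**Figure D2:**
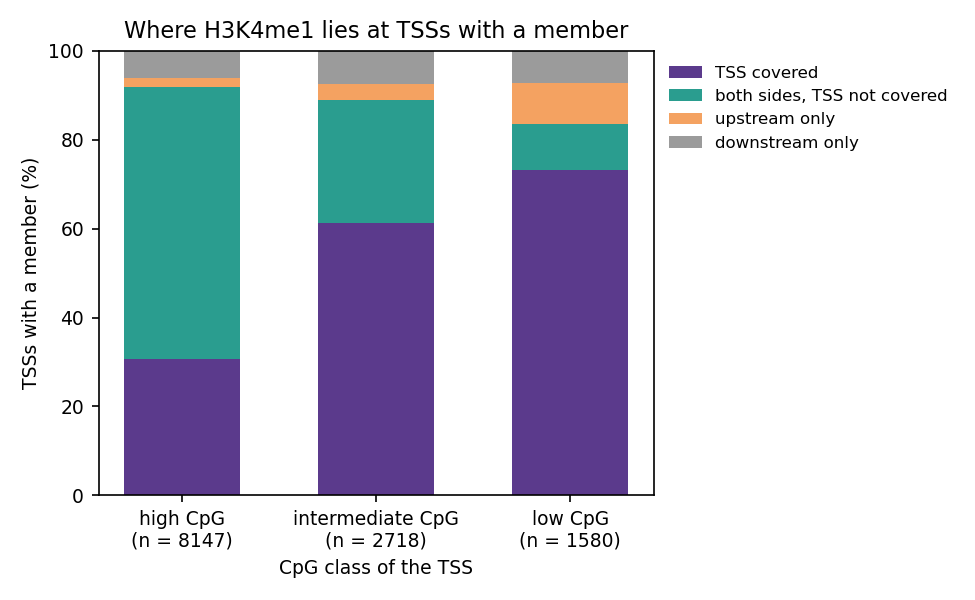
Share of TSSs with a member (y axis, %) that were covered by an H3K4me1-marked region, marked on both sides, or marked on 1 side, for each CpG class (x axis). Both sides without the TSS make up 61.2% at high-CpG TSSs and 10.3% at low-CpG TSSs.

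The unmarked gap between both flanks had a median of 612 bp (interval 600 to 620 bp, quartiles 402 and 862 bp). It was 624.5 bp at high-CpG, 482.5 bp at intermediate and 753.5 bp at the 162 low-CpG TSSs of this kind. The gap was not centred on the TSS. The facing edge lay a median of 203 bp away upstream and 325.5 bp downstream, and it was farther on the downstream side at 3861 of 5895 TSSs with unequal distances (65.5%, interval 64.3 to 66.7%). The flank itself was also wider downstream, with medians of 1230 and 832 bp. The rule bears on these values. A member that leaves the TSS open has its midpoint under 1 kb and reached at most 1978 bp in width, whereas the region on the other side needed an edge within 2000 bp and had no width limit. Members were more often the upstream region, so the part of the selection in the difference between the sides cannot be told apart.

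Position by position, high-CpG TSSs with a member were covered at 74.2% 500 bp upstream, at 28.7% 50 bp downstream of the TSS, and at 78.4% 750 bp downstream. At intermediate TSSs the corresponding low point was 58.9%, also 50 bp after the TSS. Low-CpG TSSs had their highest cover, 74.4%, 200 bp upstream and were still covered at 73.2% on the TSS base. Past the flanks the downstream side stayed higher at high-CpG TSSs, with 31.2% at 2000 bp downstream against 13.5% at 2000 bp upstream.

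**Figure D3:**
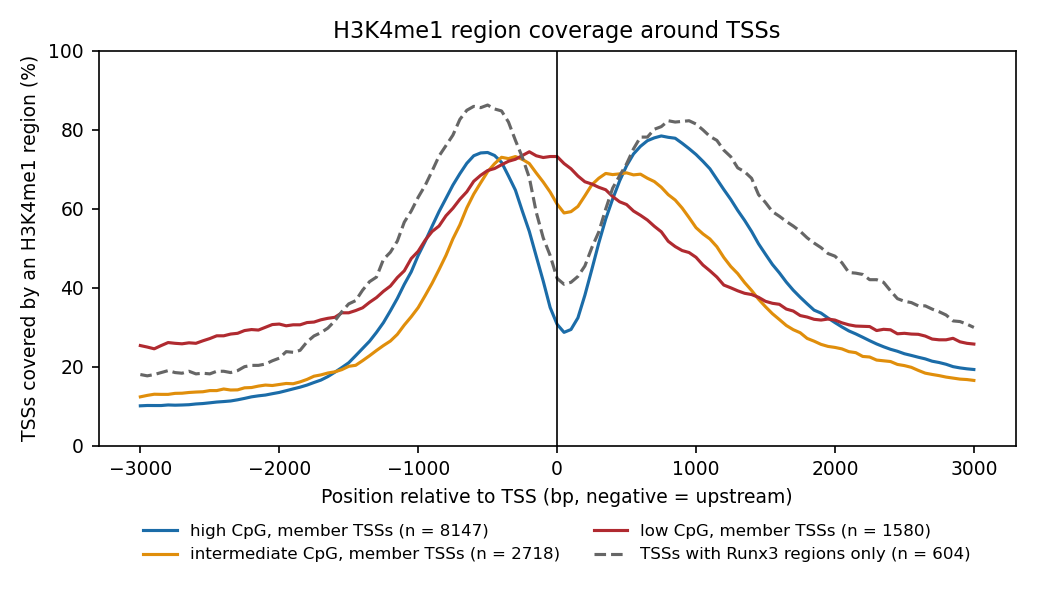
Share of TSSs covered by any H3K4me1-marked region (y axis, %) against position around the TSS (x axis, bp), for TSSs with a member by CpG class and for 604 TSSs whose promoter regions all overlapped Runx3. High-CpG TSSs show a trough just after the TSS, whereas low-CpG TSSs show a single rise over it.

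The 5 TSSs with the longest marked flanks in sum were those of Ptpn1 (a tyrosine phosphatase), Stk24 (a Ste20-family kinase), Ccdc88c, Jak1 (a kinase of cytokine receptors) and Rap1b (a small GTPase of integrin activation). All 5 were high-CpG. At Ptpn1 the upstream member of 1093 bp ended 231 bp before the TSS, and a region of 30179 bp began 629 bp after it. At Jak1 the upstream member of 669 bp ended 352 bp before the TSS, and a region of 21092 bp began 816 bp after it. In each of the 5 the gap was 859 to 1681 bp. The long flank at these TSSs could not be the member, which the rule kept under that width, so its side follows from where the member lay.

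The annotation differed by side as the sides imply. Of the upstream midpoints 76.8% lay outside protein-coding transcripts and 19.4% in an intron. Of the downstream midpoints 75.4% lay in an intron, 12.1% in a coding exon and 11.8% in a UTR exon. Some upstream members were downstream of another gene on the opposite strand. Within 2000 bp of such a protein-coding TSS lay 3.84% of upstream members, and 11.0% lay within 2000 bp of a TSS of any annotated transcript. For downstream members these shares were 0.819% and 3.05%. Each midpoint was assigned to its nearest protein-coding TSS, so a region closer to the opposite gene was counted as downstream there.

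The 667 promoter regions with Runx3, at the same distance and width limits, served as comparison. Of these 36.3% (interval 32.7 to 40.0%) lay downstream, against 46.2% of members. The odds ratio was 1.51 (interval 1.28 to 1.77, two-sided Fisher's exact test, adjusted p = 6.95e-07). Downstream shares of members and of regions with Runx3 were 45.3% and 31.6% at high-CpG, 49.2% and 42.4% at intermediate, and 45.8% and 43.3% at low-CpG TSSs. The difference did not pass Fisher's exact test with midpoints under 500 bp (odds ratio 1.29, adjusted p = 0.0745), after merging of neighbours (1.16, adjusted p = 0.137), or when promoter regions within 1000 bp of a Runx3-bound region were moved from the members to the comparison set (1.13, adjusted p = 0.131). The TSS was covered by 36.6% of members and 38.7% of regions with Runx3, an odds ratio of 0.915 (interval 0.780 to 1.07, Fisher's exact test, adjusted p = 0.332). This ratio passed the threshold with TSSs of all transcripts (0.832), the nearest edge under 1000 bp (0.822) and merged neighbours (0.437). It turned to 1.11 with midpoints under 500 bp, not past the threshold. By class the differences went opposite ways. At high-CpG TSSs 26.0% of members (interval 25.1 to 26.9%) and 18.5% of regions with Runx3 (15.0 to 22.7%) covered the TSS, at intermediate ones 52.1% and 51.4%, and at low-CpG ones 65.3% (63.0 to 67.6%) and 83.6% (76.4 to 88.9%). The rise of covering from high- to low-CpG TSSs was thus also present in regions with Runx3, and the classes were not tested one by one. High- and low-CpG members had an odds ratio of 0.978 for the downstream side (interval 0.881 to 1.09, Fisher's exact test, adjusted p = 0.689), but the comparison passed the threshold in opposite directions under other limits. The odds ratio was 0.594 with midpoints under 500 bp (Fisher's exact test, adjusted p = 5.26e-12) and 2.00 for regions at or above the median width (adjusted p = 2.15e-20), so no direction is given.

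Of 22348 protein-coding genes, 10035 (44.9%) had a member at a TSS, and 57.8% had any H3K4me1-marked region reaching within 1 kb of a TSS. Of the genes with a member, 6727 had 1, 2987 had 2 and 321 had 3 or more. The most members, 8, were at Rgs3, a regulator of G-protein signalling with 10 annotated TSSs. A member was present at 67.6% of genes with a high-CpG promoter, 48.2% with an intermediate and 15.7% with a low-CpG promoter. The odds ratio of high against low was 11.2 (interval 10.4 to 12.0), and 3.79 with midpoints under 500 bp. The class was that of the TSS nearest to a member, or of the most 5′ TSS in genes without one. With the most 5′ TSS for all genes the shares were 68.2%, 47.4% and 14.7%. The odds ratio was then 12.4 (chosen after the data were seen). On chromosome X 25.2% of 932 genes had a member (interval 22.5 to 28.1%), against 45.8% on the autosomes, among which chromosome 14 had the lowest share, 35.8%, and chromosome 11 the highest, 52.7%.

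Lists of genes used in most cells had members mostly at high-CpG TSSs, a class in which 67.6% of all genes had one. The shares of the complex I (66.7%), proteasome (61.8%), ribosomal protein (61.3%) and spliceosome (53.6%) lists were below that value. For the cell cycle list (cyclins, their kinases and inhibitors, E2F factors, and replication and mitosis genes) 23 of 24 genes had one, against the 44.9% of all genes, or 10 of 24 with midpoints under 500 bp, where 24.1% of all genes had one, and 28 of its 31 regions were at high-CpG TSSs. Cdkn1a, the inhibitor p21, had a member at chr17:29230344-29232377 (2034 bp) from 373 bp before to 1660 bp after its TSS. Ccnb2, a mitotic cyclin, had one at chr9:70268776-70270650 (1875 bp) from 1289 bp before to 585 bp after its TSS. For complex I of the mitochondria 24 of 36 genes had a member, with 34 of 35 regions at high-CpG TSSs and 20 of 30 TSSs marked on both sides. Of all members 65.7% were at high-CpG TSSs, and 61.2% of all high-CpG TSSs with a member were marked on both sides. Ndufs3 had its upstream member at chr2:90745070-90746769 (1700 bp), which ended 86 bp before the TSS, and its next region began 391 bp after it. Among the 5 widest members of this list the other four were downstream, at Ndufv3, Ndufa9, Ndufa10 and Ndufb6, and began 201 to 273 bp after the TSS.

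Cytosolic ribosomal protein genes had a member at 46 of 75, and each of the others had a region with Runx3 or of the widest class (3 genes) or another H3K4me1-marked region within 1 kb (26 genes). Any such region was present at 57.8% of all genes. Of their 57 regions 50 were at high-CpG TSSs, against 65.7% of all members. Both sides were marked at 44 of 56 TSSs, against 61.2% of all high-CpG TSSs with a member. Their members lay downstream in 14 of 57 (24.6%, interval 15.2 to 37.1%), against 46.2% of all members. This was counted at the 1 kb limit alone, and downstream regions with their midpoint past it are not members. At Rpl24 the upstream member at chr16:55972188-55973709 (1522 bp) ended 208 bp before the TSS and the downstream region, of 1946 bp, began 913 bp after it. At Rpl19 and Rpl21 the downstream regions began 834 and 651 bp after the TSS.

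Subunits of the proteasome had a member at 21 of 34 genes (61.8%) and the core spliceosome at 15 of 28 (53.6%, interval 35.8 to 70.5%, which includes the 44.9% of all genes). Psmd13, a subunit of the regulatory particle, had a downstream member at chr7:148068372-148070316 (1945 bp) whose first base was next to the TSS. Psmd11 had one at chr11:80242666-80244295 (1630 bp) from 723 bp before to 906 bp after its nearest TSS. Sf3a2, a subunit of the U2 particle, had a downstream member at chr10:80261753-80263559 (1807 bp) that began 39 bp after the TSS. Of 15 genes for enzymes that add or remove methyl groups at H3K4 and for their partners 6 had a member (interval of the share 19.8 to 64.3%), among them the demethylases Kdm1a and Kdm5b and the methyltransferase Setd1a, with a downstream member of 1712 bp at chr7:134921305-134923016.

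**Figure D4:**
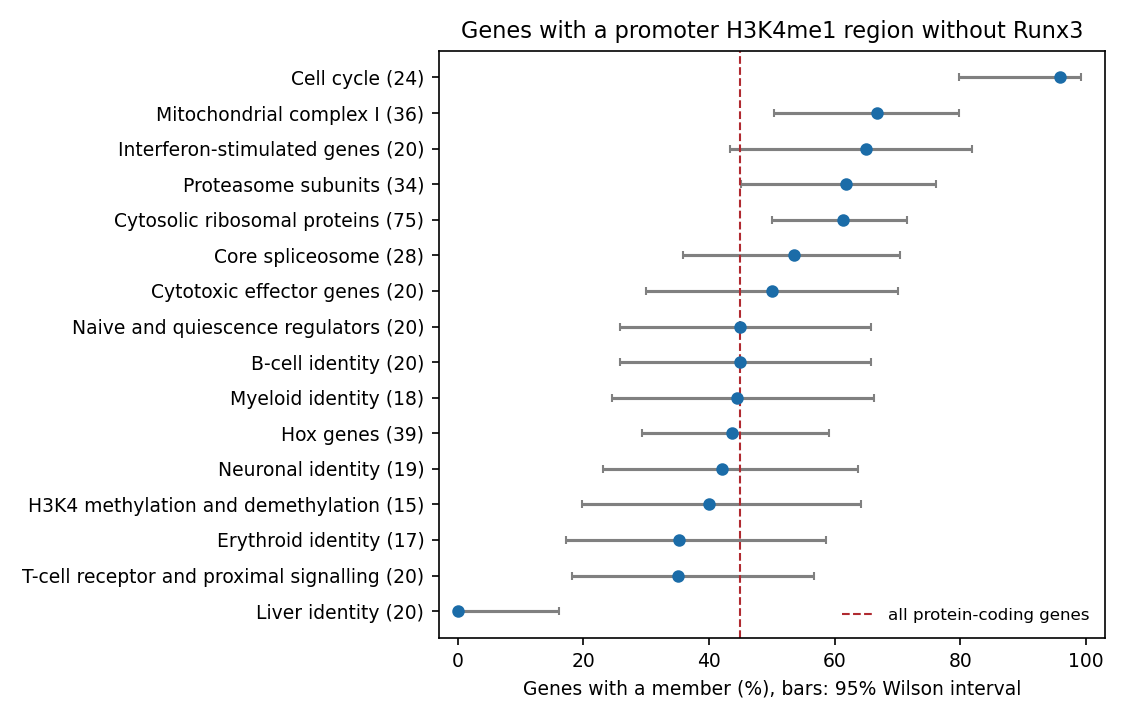
Share of the genes of each list with a member (x axis, %, points with 95% Wilson intervals), with the number of annotated genes in brackets and the share of all protein-coding genes as a dashed line. The cell cycle list has the highest share (23 of 24) and the liver list the lowest (0 of 20).

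For genes of the T-cell receptor and its proximal signalling 7 of 20 genes had a member (35.0%, interval 18.1 to 56.7%, which includes the 44.9% of all genes). A further 7 had only regions with Runx3 or of the widest class, the other 6 had H3K4me1 within 1 kb, and 0 had none. Of all genes 57.8% had an H3K4me1-marked region within that distance. Of the 7 members 6 lay upstream and 6 were at low-CpG TSSs, against 53.8% and 12.3% of all members. Lcp2, the adaptor SLP-76, had a member of 3253 bp at chr11:33945521-33948773 centred 3 bp after its TSS. Fyn had one of 1963 bp at chr10:39087579-39089541 from 1082 bp before to 880 bp after the TSS, and Cd6 one of 1419 bp at chr19:10904285-10905703 that ran from 1155 bp before to 263 bp after it. Plcg1 (phospholipase C gamma 1) and Cd247 (the CD3 zeta chain) had upstream members of 1296 and 1076 bp, which ended 95 and 99 bp before the TSS.

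Regulators of the naive state had a member at 9 of 20 genes. Satb1, a chromatin organizer, had 2 at low-CpG TSSs, one of 5336 bp at chr17:51946260-51951595 that was centred 12 bp before its TSS and one of 2310 bp. Ets1, the ETS-family factor of T cells, had one of 1531 bp at chr9:32443049-32444579, centred 8 bp after the TSS. Foxp1 had one of 2602 bp, which by its width had to cover its TSS.

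Cytotoxic effector genes had a member at 10 of 20 (interval 29.9 to 70.1%, which includes the 44.9% of all genes), and 7 had no H3K4me1-marked region within 1 kb of a TSS, where 57.8% of all genes have one. Eomes, a T-box factor, had one of 2915 bp at chr9:118385610-118388524 from 1720 bp before to 1194 bp after its TSS. Fasl, the Fas ligand, had one of 1943 bp at chr1:163717359-163719301, and Cx3cr1 one of 1334 bp at chr9:119976742-119978075, both across the TSS. Prdm1, the repressor Blimp-1, had a high-CpG TSS and a member on each side, of 1475 bp upstream and 1788 bp downstream, with a gap of 221 bp.

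Interferon-stimulated genes had a member at 13 of 20, with 11 of 17 regions at low-CpG TSSs, against 12.3% of all members. Gbp2 had one of 4897 bp at chr3:142280421-142285317 from 3145 bp before to 1751 bp after its TSS. Mx1 and Mx2, antiviral GTPases, had members of 3843 and 3348 bp and Irf7, a factor of the interferon response, one of 2088 bp, all across the TSS. Bst2 (tetherin) had a downstream member of 1855 bp that began 18 bp after its TSS. The share of the interferon list, 65.0%, had an interval of 43.3 to 81.9% that included the 44.9% of all genes, and that of the cell cycle list (95.8%, interval 79.8 to 99.3%) did not at the 1 kb limit.

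Lists of other cell types also held members, and for the B-cell, myeloid, Hox and naive lists the share of genes with one was near the 44.9% of all genes. B-cell genes had one at 9 of 20, a further 9 had other H3K4me1 within 1 kb, 1 had a region with Runx3 or of the widest class and 1 had none, with 1 of 12 regions downstream (8.33%, interval 1.49 to 35.4%), among them Fcer2a (1934 bp) and Ciita (1480 bp, the master regulator of MHC class II). Myeloid genes had a member at 8 of 18, and 9 had no H3K4me1 within 1 kb, with 9 of 11 regions across the TSS (8 of the 11 were at low-CpG TSSs, where 65.3% of all members cover the TSS), as at Emr1 (2665 bp, the F4/80 antigen), Itgam (2172 and 1755 bp) and Fcgr3 (1843 bp). Members wider than 2000 bp, as at Emr1, cover the TSS by the rule. Erythroid genes had one at 6 of 17, as at Tal1 (2678 bp), and neuronal genes at 8 of 19, where 10 had no H3K4me1 within 1 kb, as at Tubb3 (4135 bp) and Dlx1 (2828 and 1678 bp). Liver genes had a member at 0 of 20, and 19 of these had no H3K4me1-marked region within 1 kb. Hox genes had one at 17 of 39, and 21 had no H3K4me1 within 1 kb. The counts without H3K4me1 in these lists are to be read against the 57.8% of all genes that have such a region. Of the 25 Hox members 17 lay downstream (68.0%, interval 48.4 to 82.8%), among them Hoxa3 at chr6:52161280-52163851 (2572 bp), Hoxc9 (2381 bp), Hoxa11 (1712 bp), Hoxa7 (1561 bp) and Hoxa9 (1489 bp).

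**Figure D5:**
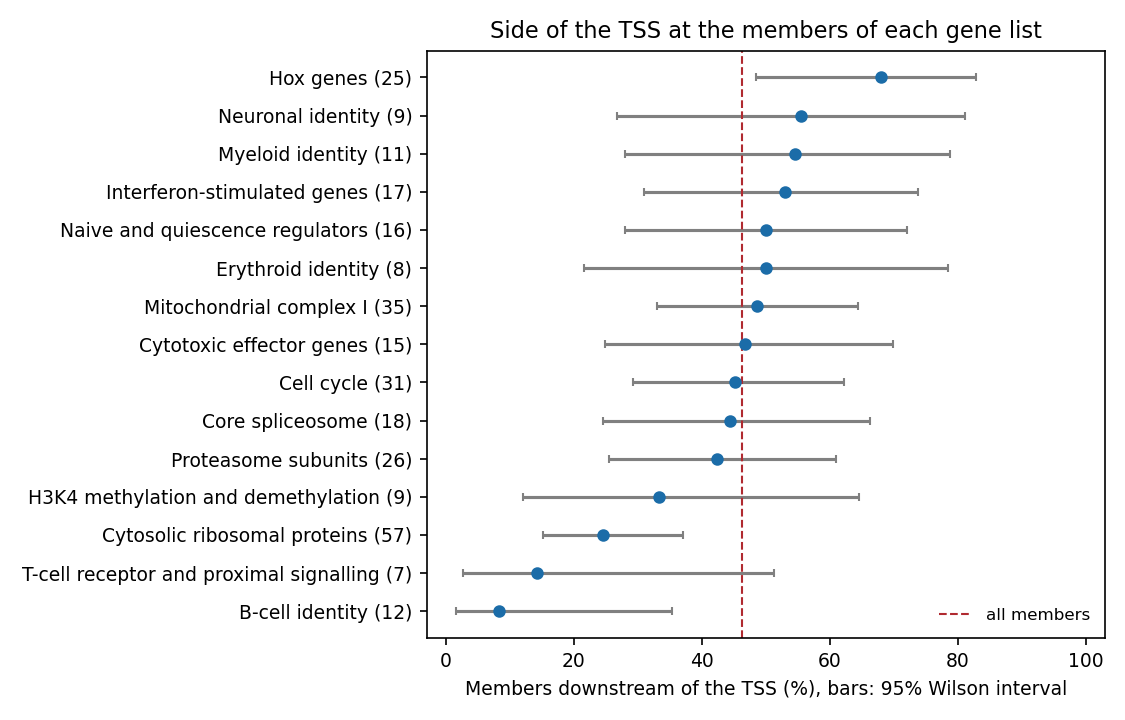
Share of the members of each gene list that lay downstream of the TSS (x axis, %, points with 95% Wilson intervals), with the number of regions in brackets and the share of all members as a dashed line. Most intervals include the 46.2% of all members, whereas those of the ribosomal protein and B-cell lists lie below it and that of the Hox list lies above it. Sides of the lists were counted at the 1 kb limit on midpoints alone, and the share of all members changed with that limit.

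The labelled cell type was compared with its markers. Of 12 CD8 T-cell markers 4 had a member (Cd8a, Cd3g, Zap70 and Thy1), against the 44.9% of all genes, 3 had regions with Runx3 or of the widest class only, 5 had other H3K4me1 within 1 kb and 0 had none. All 5 members at these markers lay upstream at the 1 kb limit, against 53.8% of all members. That of Cd8a at chr6:71321781-71323161 (1381 bp) ended 260 bp before the TSS. Members were also present at 1 of 8 B-cell, 4 of 5 myeloid, 1 of 5 erythroid and 2 of 4 natural killer cell markers. H3K4me1 was absent within 1 kb at 1, 1, 3 and 1 of these. These counts, and the 0 of the CD8 T-cell markers, are to be read against the 57.8% of all genes that have such a region. The marker sets are small, and the longer B-cell and myeloid lists above had members at 9 of 20 and 8 of 18 genes. A list of regions does not give the share of cells that carry the mark, and the part of other spleen cells in these regions was not tested.

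Motifs were searched on both strands as exact letters. In the 200 bp around the midpoint, a RUNX motif (TGTGGT, or its variants spelled TGTGGC, spelled TGCGGT and spelled TGCGGC) was present in 29.3% of members, in 32.4% of all H3K4me1-marked regions and in 27.0% of promoter regions with Runx3. This window is centred on the H3K4me1-marked region and need not hold the part bound by Runx3. Over whole regions the order turned, with 78.5% of members and 85.5% of promoter regions with Runx3, which were wider (median 1026 bp against 907 bp). The SP1 motif GGGCGG was present in 9.32% of members against 4.66% of all, and the ETS core CCGGAA in 4.60% against 3.11%. NF-Y (CCAAT) was at 23.0% and 22.4%, and the TATA box (TATAAA) at 9.55% and 11.0%. Members held 2.46 CpG per 100 bp in that window against 1.47 in all H3K4me1-marked regions, and the part of base composition in the motif shares was not tested.

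In the promoter, from 250 bp before to 50 bp after the TSS, motifs were compared within the high-CpG class. GGGCGG was present at 77.8% of uncovered and 62.8% of covered high-CpG TSSs with a member, against 73.8% of all high-CpG TSSs. CCGGAA was present at 33.1%, 21.2% and 29.5% of these. The cyclic AMP element TGACGTCA was present at 4.57%, 2.59% and 3.56%, and a RUNX motif at 51.7%, 49.8% and 52.0%. Uncovered high-CpG promoters also held more CpG, 9.13 per 100 bp against 7.09 in covered ones. At low-CpG TSSs with a member TATAAA was present at 12.3% of covered and 14.9% of uncovered ones, against 19.7% of all low-CpG TSSs. These shares are descriptions of letters in a window and were not tested.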

How the data were processed

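Per the labels, reads of 40 to 42 bp from fragments of about 300 bp were aligned to mm9 with ELAND. Per the submitters' processing notes CASAVA 1.6 and 1.7 were used. According to the methods of the study, the authors kept uniquely aligned reads, joined the repeats, called regions with MACS against joined NIS reads and scaled the larger data set to the smaller. The deposited files give positions alone (and a name for Runx3), with no score, count or p-value, so the depth behind a region and the error between repeats cannot be taken from them. Both lists share the NIS control. The members and gene lists were chosen with earlier results of these data known.

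TSSs came from GENCODE transcripts of NCBIM37 (mm9) typed protein-coding, on 19 autosomes and X. Overlap meant 1 shared bp. Intervals are 95% Wilson or order-statistic intervals and cover counting error over regions only. The 7 two-sided Fisher's exact tests between sets of regions or genes were adjusted by Benjamini-Hochberg. Scripts used Python 3.11.15, pandas 2.3.3, numpy 2.4.6, scipy 1.17.1 and matplotlib 3.10.9, and were tested on simulated data. The genes named were the 5 widest members per side, up to 5 per list, the 5 longest two-sided TSSs and those at the limits, with further list genes added after their values were seen. Alternatives were other TSS sets, distance and width limits, merging, CpG classes and a shorter reach.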

Additional observations from a re-analysis of the deposited data

How the results depend on the processing

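No paired analysis was possible because the authors joined the repeats before the calls. This also kept single repeats from being left out in turn. Of 157 alternative values for 28 results, 99 kept their direction and side of the threshold, moved by less than their interval or, for counts, stayed within 1.5 times the reported count, and 6 of the 157 were chosen after the data were seen. The lists have no height, so a stricter threshold of the authors' calls could not be tried, and a region not called may be a weak one. The causes of the changes below were not tested beyond what merging does by construction.

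The number of members was 3236 at genes with a single TSS, 6007 with midpoints under 500 bp, 5966 at or above the median width and 8444 after merging neighbours within 1000 bp. It was 16534 with TSSs of all transcripts, 11228 with the most 5′ TSS and 19794 with the nearest edge under 1000 bp. The downstream share, 46.2%, was 48.2% with TSSs of all transcripts, 43.7% with the most 5′ TSS, 41.9% at single-TSS genes, 38.4% under 500 bp and 48.3% without members downstream of an opposite TSS (chosen after the data were seen). It turned to 54.9% with the nearest edge under 1000 bp, 57.3% at or above the median width, 65.1% after merging and 54.1% with midpoints under 2000 bp (chosen after the data were seen). In the same order of settings, the share covering the TSS, 36.6%, was 43.6% (all transcripts), 29.6% (most 5′ TSS), 28.3% (single TSS), 67.0% (under 500 bp), 27.2% (nearest edge), 48.2% (width), 78.3% (merged) and 26.3% (under 2000 bp). The share of uncovered TSSs marked on both sides, 82.9%, was 79.3%, 81.7% and 76.7% for these TSS sets, 81.4% (nearest edge), 87.9% (width), 44.3% (merged) and 76.3% with the other side within 1000 bp.

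Against regions with Runx3, the odds ratio for the downstream side was 1.29 (under 500 bp), 1.13 (members within 1000 bp of Runx3 moved to the comparison set) and 1.16 (merged), none past the threshold. For covering the TSS it was 0.832 (all transcripts), 0.822 (nearest edge) and 0.437 (merged), all past the threshold, and 1.11 (under 500 bp), which turned. High- against low-CpG, the odds ratio for the downstream side passed the threshold at 0.754 (most 5′ TSS), 0.742 (single TSS) and 0.594 (under 500 bp), and turned to 1.43 (nearest edge), 2.00 (width), 1.83 (merged) and 1.36 (under 2000 bp), all past the threshold, and to 1.07 (all transcripts) and 1.01 (CpG ratio of 300 bp), which were not. For covering the TSS it was 0.993 after merging and 0.0743 at or above the median width, and for genes with a member it was 3.79 with midpoints under 500 bp. With midpoints under 500 bp, where 24.1% of all genes had a member, genes with one numbered 3 (T-cell receptor), 3 (naive), 5 (B-cell), 9 (Hox), 21 (ribosomal), 7 (proteasome), 9 (complex I), 7 (spliceosome), 4 (interferon) and 10 (cell cycle). With Runx3 and the widest regions included they numbered 14 (T-cell receptor) and 10 (H3K4 enzymes). A RUNX motif was in 78.5% of members when the whole region was searched.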
